A study of Mus musculus with 6 samples.

Results

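Glycolysis and hypoxia response genes were followed in mouse alveolar macrophages as a set of 35 genes of the 23413 listed in the count table. The set was chosen by symbol. It holds the HIF system, glucose and lactate transporters, glycolytic enzymes, regulators of pyruvate dehydrogenase and 3 targets of hypoxia signalling. All 35 had a row, and 32 had enough counts to be tested. Egln3, Slc2a3 and Ndrg1 did not. The macrophages were collected fresh by airway lavage from wild-type mice, and treatment lasted 4 h in culture. LPS + VD3 cells received 100 ng/mL lipopolysaccharide (LPS), the Gram-negative outer membrane component that Tlr4 detects, together with 50 nM vitamin D3, which acts through the nuclear receptor Vdr. LPS cells received the same dose of LPS alone, and control cells are labelled as controls, with no agent or culture condition given. No time in culture is given for control cells either. Against control, effects of LPS and of culture can therefore not be told apart. Each group had 2 RNA-seq libraries. The labels give no strain or age, nor whether different mice or cultures stood behind the libraries of a group. The p-values therefore rest on library-to-library spread that could be purely technical.

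Glycolysis splits glucose into pyruvate, which is either reduced to lactate or passed to the mitochondria through pyruvate dehydrogenase. The transcription factors Hif1a and Epas1 (HIF-2 alpha) pair with Arnt and raise glucose transporters, glycolytic enzymes and pyruvate dehydrogenase kinases when oxygen is low. In oxygen, prolyl hydroxylases of the Egln family mark both alpha proteins for Vhl, which has them degraded, so that their activity is set largely at the level of protein, which RNA-seq does not measure. Macrophages exposed to LPS are known to take up more glucose and to release lactate, while resident alveolar macrophages are known for a mostly oxidative metabolism.

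The total count ranged from 5022314 in library control 1 to 5465223 in LPS + VD3 2. As a check of the treatments, Tnf and Il6, cytokines induced by LPS, rose by 6.63 ± 0.22 and 11.70 ± 0.40 (log2 fold change ± SE) in LPS cells against control cells, and Cyp24a1, the vitamin D 24-hydroxylase, had 112 and 124 counts in LPS + VD3 libraries against 0 in both LPS libraries, at least 78.8-fold higher against a floor of 3 counts over the LPS group. Of the other checks, Il1b rose and Vdr fell in LPS against control. Vdr rose in LPS + VD3 against LPS, by 2.77 to 3.21 over 16 alternative settings. It was still lower in LPS + VD3 against control, at -1.12. Alveolar macrophage markers were abundant, with Chi3l3 between 11942 and 17198 CPM (each count over the library total, on a scale that the TMM factors of edgeR correct for composition) and Marco between 1433 and 3912. Of the 13 alveolar macrophage markers tested, 3 rose (Marco, Car4 and Fabp4) and 7 fell in LPS against control, with a median log2 fold change of -0.78, and 0 passed in LPS + VD3 against LPS, where edgeR gave 2 higher and 1 lower at an unadjusted p under 0.05. Summed CPM of 9 lymphocyte markers was 0.628 and 3.18 in LPS + VD3, 1.64 and 1.82 in LPS, and 1.03 and 0.641 in control, and S100a9, Mpo, Elane and Retnlg of the neutrophil list and Sftpc of the epithelial list had no count in any library. The monocyte list summed to 182 and 206 CPM in LPS + VD3, 270 and 368 in LPS, and 9.08 and 11.4 in control. In the LPS-treated libraries that sum was nearly all Vcan, which rose with LPS, while Ccr2 fell and Plac8 had no count. The neutrophil list summed to 55.8 to 81.2 CPM over the 6 libraries, the stromal and endothelial list to 7.89 at most and the erythroid list to 0.171 at most. Of 4 neutrophil markers tested, Cxcr2 and S100a8 were called higher in LPS + VD3 against control, and 0 were called in the other comparisons. Of 6 general macrophage markers tested, Emr1 rose and Mertk and Fcgr1 fell in LPS against control, and 0 passed in LPS + VD3 against LPS. Fcgr1, Csf1r and Mertk were lower in LPS + VD3 against control. The epithelial list summed to 39.4 and 52.9 CPM in LPS + VD3, 33.7 and 37.8 in LPS, and 223 and 240 in control, nearly all of it Cdh1. The part of these differences in the results below was not tested. In RNA from whole cell populations, fewer cells of a type and less RNA per cell cannot be told apart.

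The LPS libraries stood apart from each other more than the libraries of the other groups. Across genes, Pearson's r of their log2 CPM was 0.981 in LPS + VD3, 0.969 in LPS and 0.991 in control. Spearman's rho between the log ratio of replicate 1 over 2 and transcript GC content was 0.191 in LPS + VD3, 0.678 in LPS and 0.245 in control, across genes, which are not independent replicates. Over the 32 tested members the rho of the LPS pair was 0.514, and 19 of them were higher and 13 lower in LPS 1 than in LPS 2. The title of LPS 1 also belongs to another number series than those of the other 5 libraries, so that a batch would rest on a single library and has no value of its own. Values without an LPS library are given beside many of the results where leaving it out changed a call or moved a value most.

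The promoters of 6 genes that the results turn on are shown with matches to the core of the hypoxia response element, the sequence bound by HIF pairs. Hif1a and P4ha1 are the members raised by vitamin D3, Hk2 and Pfkp those with the largest rise after LPS, and Slc16a1 and Pdk1 those with the largest fall. Each run is the 250 bases before the transcription start in RefSeq (mm10), on the strand of the gene and 5′ to 3′. Hif1a lies at chr12:73907617-73907866 on the + strand, P4ha1 at chr10:59323046-59323295 on the + strand, Hk2 at chr6:82774455-82774704 on the - strand, Pfkp at chr13:6648772-6649021 on the - strand, Slc16a1 at chr3:104638414-104638663 on the + strand and Pdk1 (the first of its windows) at chr2:71872974-71873223 on the + strand. Capitals mark ACGTG or GCGTG read on either strand.
Hif1a: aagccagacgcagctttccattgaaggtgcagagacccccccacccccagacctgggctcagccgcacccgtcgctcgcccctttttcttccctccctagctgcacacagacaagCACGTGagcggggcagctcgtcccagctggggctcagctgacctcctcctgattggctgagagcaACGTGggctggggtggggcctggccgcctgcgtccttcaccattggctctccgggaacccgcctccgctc
P4ha1: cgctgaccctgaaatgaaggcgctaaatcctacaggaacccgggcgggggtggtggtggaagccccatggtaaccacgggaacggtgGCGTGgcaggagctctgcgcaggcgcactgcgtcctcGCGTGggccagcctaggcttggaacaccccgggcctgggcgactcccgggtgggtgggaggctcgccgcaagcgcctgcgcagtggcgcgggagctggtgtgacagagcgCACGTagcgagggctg
Hk2: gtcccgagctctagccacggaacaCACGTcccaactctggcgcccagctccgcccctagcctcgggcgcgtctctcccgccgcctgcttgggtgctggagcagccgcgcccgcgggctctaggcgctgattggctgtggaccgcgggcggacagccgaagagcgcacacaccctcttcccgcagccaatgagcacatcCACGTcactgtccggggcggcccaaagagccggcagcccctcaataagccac
Pfkp: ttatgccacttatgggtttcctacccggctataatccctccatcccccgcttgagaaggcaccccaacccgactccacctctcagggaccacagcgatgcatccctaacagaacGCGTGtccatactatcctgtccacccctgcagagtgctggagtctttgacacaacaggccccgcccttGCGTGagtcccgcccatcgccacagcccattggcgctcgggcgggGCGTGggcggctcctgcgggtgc
Slc16a1: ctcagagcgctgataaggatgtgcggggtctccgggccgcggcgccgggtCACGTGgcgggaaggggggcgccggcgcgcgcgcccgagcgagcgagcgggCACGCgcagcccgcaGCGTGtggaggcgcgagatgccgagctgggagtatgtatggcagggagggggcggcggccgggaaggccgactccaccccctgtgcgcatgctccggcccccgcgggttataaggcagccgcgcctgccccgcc
Pdk1: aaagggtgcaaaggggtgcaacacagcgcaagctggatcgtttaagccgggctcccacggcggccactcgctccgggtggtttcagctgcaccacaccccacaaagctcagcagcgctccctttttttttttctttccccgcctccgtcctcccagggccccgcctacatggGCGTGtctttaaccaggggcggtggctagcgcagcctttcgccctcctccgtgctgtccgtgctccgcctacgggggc
Windows of 300 bases, 250 before and 50 after the start, were searched. ACGTG or GCGTG on either strand stood in 36 of 45 member windows, against 43.8% of all 32851 promoter windows. By gene, it stood in 28 of the 32 members matched to the RefSeq table in any of their windows, 25 of them in the first. Epas1, Slc2a3 and Ndrg1 had no window, so these 32 are not the 32 members tested. The E-box CACGTG, which holds ACGTG on both strands and is also bound by Myc and Max, stood in 7 of the 32 members in any window, among them Hif1a and Slc16a1. It stood in the first window of 6 members and in 7 of 45 member windows, against 7.15% of all windows. The kappaB consensus, named for the family of factors that LPS activates, stood in 5 members in any window, P4ha1 included. It stood in the first window of 4 members and in 5 of 45 member windows, against 8.46% of all windows. The DR3 consensus of the vitamin D receptor stood in no member window and in 0.0396% of all windows. At that share a match among 45 windows was improbable from the start, so its absence says nothing about the members. Members that rose and members that fell both held hypoxia cores, and a match describes letters, not binding.

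Single enzymes and regulators of the set differed in both directions in LPS against control, while 7 of the 8 genes of the lower glycolytic chain did not pass the test with TMM scaling. Of the 32 members tested, 6 rose in LPS cells against control cells (Pfkp, Hk2, Pfkfb3, Hif1a, Hif1an and Egln2) and 9 fell (Slc16a1, Pdk1, Epas1, Pfkfb4, Egln1, Hk1, Pfkl, Eno1 and Slc16a3), which is 46.9% of the members, beside 31.8% of the 10724 genes tested, 15.7% higher and 16.2% lower (edgeR quasi-likelihood test, Benjamini-Hochberg adjusted p under 0.05). The median log2 fold change was -0.18 over the members and 0.006 over all genes tested. The calls in the upward direction depended on the scaling of the libraries. With library totals in place of TMM factors the median of all genes moved by -0.295, the share of higher calls among all calls was 26.2% against 49.2%, and the members called were 2 higher (Hk2 and Pfkp) and 15 lower. Hk2, Pfkp, Epas1, Slc16a1 and Pdk1 were called under each of 16 alternative settings, and the other 10 lost the call in at least 1 of them. Without control 1 the members called were Hk2 and Pfkp higher and Epas1, Slc16a1 and Pdk1 lower, and without control 2 they were these 5 and Pfkfb4. Without LPS 1, 4 members were higher and 12 lower, with Tpi1, Pgam1 and Pkm newly lower. Without LPS 2, 11 were higher, with Slc2a1, Hk3, Aldoa, Gapdh and Ldha added, and 10 lower, with Pdk3 and Pdha1 added.

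Vitamin D3 on top of LPS raised 2 members, Hif1a and P4ha1, and lowered 0. This is 6.25% of the 32 members, beside 3.83% of all genes tested in this comparison, 2.25% higher and 1.59% lower. By the same edgeR test, 4 members were higher and 5 lower at an unadjusted p under 0.05, and both DESeq2 and limma on the deposited log2 values also called 2 higher and 0 lower. The median log2 fold change was -0.14 over the members and -0.003 over all genes. The log2 fold changes in this comparison depended on which LPS library was kept. With LPS 1 as the only LPS library, Egln2, Slc2a1, Hk3, Gpi1, Pfkfb4, Aldoa, Tpi1, Gapdh and Pkm lay between -1.02 and -0.34. With LPS 2 as the only one, the same genes lay between -0.44 and 0.06. Hif1a, Egln1, Eno1 and P4ha1 were at 2.22, 0.54, 0.75 and 0.83 with LPS 1 and at 1.51, 0.52, -0.14 and 0.65 with LPS 2. Which of the LPS libraries was the more typical was not tested. With LPS + VD3 2 left out 0 members were called, and with LPS + VD3 1 left out 1 was called.

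**Figure D1:**
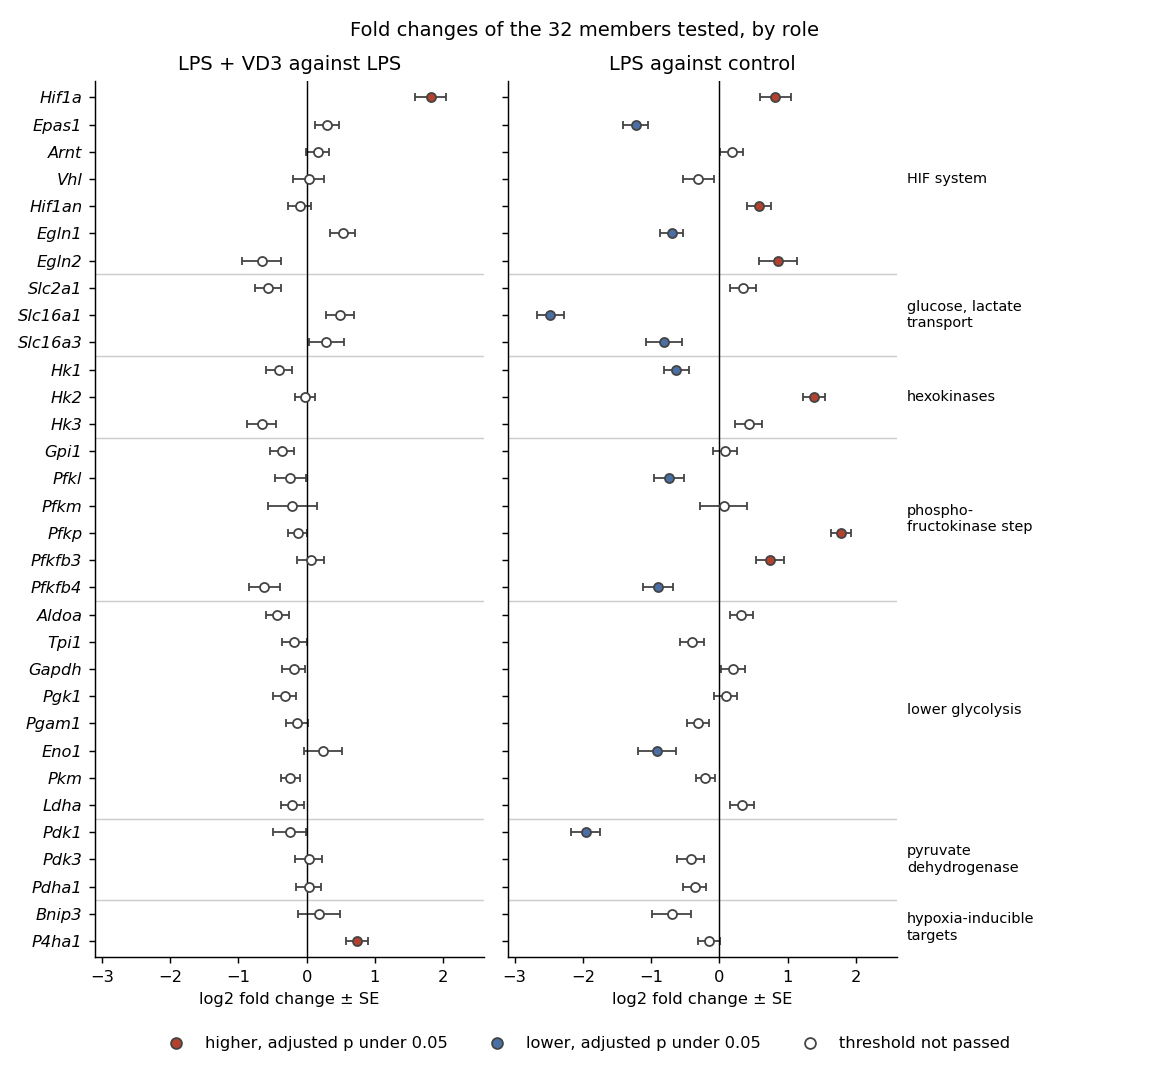
Log2 fold change ± SE (x axis) of the 32 members tested, grouped by role (y axis), in LPS + VD3 cells against LPS cells (left) and LPS cells against control cells (right), with 2 libraries a group. Filled points passed the edgeR test; on the left these are Hif1a and P4ha1, and on the right 6 members lie to the right of 0 and 9 to the left.

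Hif1a, the oxygen-regulated subunit of HIF-1, had the largest difference of the members in LPS + VD3 against LPS. It had 958 and 1213 CPM in LPS + VD3 libraries, 234 and 380 CPM in LPS libraries, and 162 and 187 CPM in control libraries. Both LPS + VD3 libraries lay far above the higher LPS library, the LPS libraries lay above both control libraries, and no groups overlapped. The log2 fold change was 1.82 ± 0.23 in LPS + VD3 against LPS (SE; 3.54-fold; edgeR adjusted p = 0.00227) and 0.82 ± 0.23 in LPS against control (1.76-fold; edgeR adjusted p = 0.0195). Against control, LPS + VD3 cells were 2.64 ± 0.24 higher on the log2 scale (edgeR adjusted p = 1.74e-05), a call kept in all 16 alternative settings. The LPS libraries differed from each other by more than the control libraries did: without LPS 1 the value was 1.51 in LPS + VD3 against LPS and 1.10 in LPS against control, and without LPS 2 it was 2.22 and 0.42. With an offset for GC content the LPS + VD3 against LPS value was 1.55. That call was lost without LPS + VD3 2 (1.64, edgeR adjusted p = 0.0733, in a range of 3.9e-12 to 0.0733 over the alternatives). The LPS against control call was lost with library totals (0.52, adjusted p = 0.0898), in the deposited log2 table (0.49) and without control 1 (0.71) or control 2 (0.92), in a range of edgeR, DESeq2 and limma adjusted p of 7.58e-06 to 0.144. On mm10 the gene spans 73901375 to 73947530 on chromosome 12.

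Epas1, which encodes the other alpha subunit, did the opposite after LPS. It had 62.4 and 81.2 CPM in LPS + VD3 libraries, 53.4 and 63.1 in LPS libraries, and 132 and 141 in control libraries. All 4 LPS-treated libraries lay below both control libraries, and the LPS + VD3 and LPS libraries overlapped. Epas1 fell by 1.23 ± 0.18 on the log2 scale in LPS against control (edgeR adjusted p = 0.000509), and the difference in LPS + VD3 against LPS was 0.30 ± 0.18 (edgeR adjusted p = 0.344, 95% interval -0.10 to 0.71). Per kb of exon, Hif1a made up 94.0% and 93.8% of the summed level of the 2 alpha subunits in LPS + VD3 libraries, 81.6% and 85.9% in LPS libraries and 55.4% and 57.4% in control libraries. The summed level was 187 and 237 CPM per kb in LPS + VD3, 52.6 and 81.2 in LPS and 53.7 and 59.8 in control, so that the LPS and control libraries overlapped in the sum and not in its composition.

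**Figure D2:**
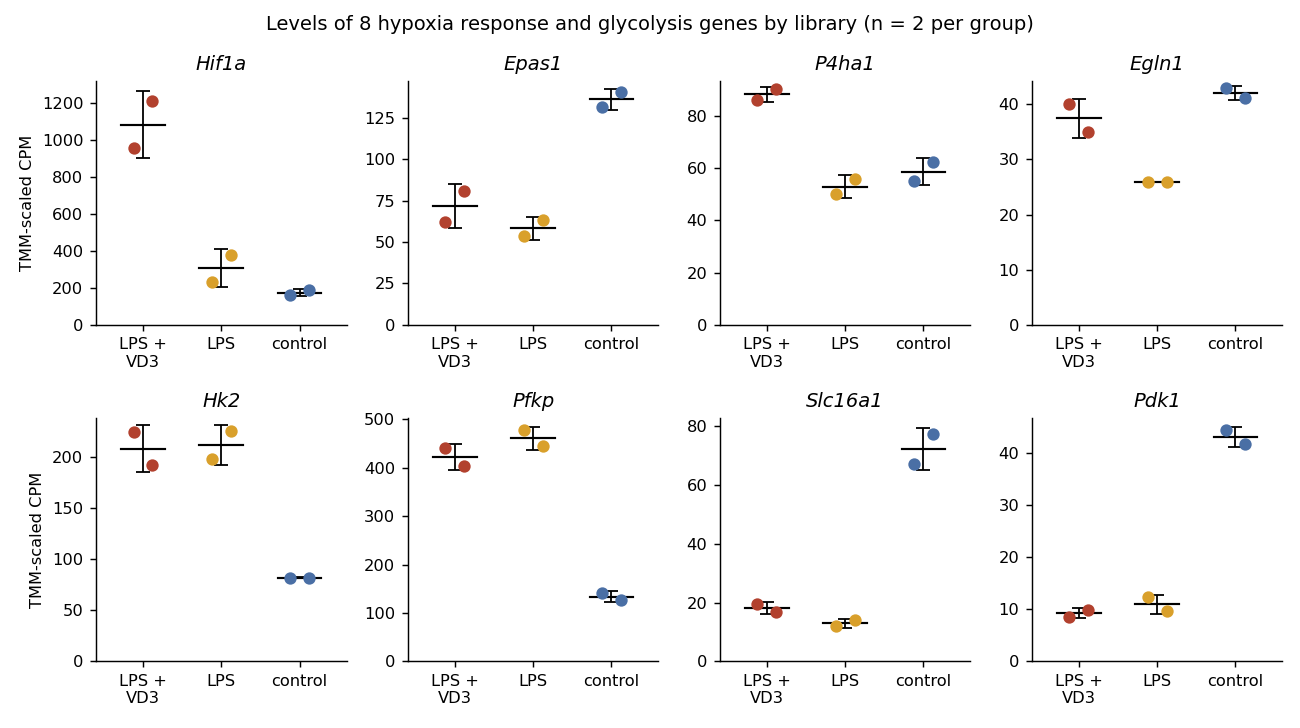
TMM-scaled CPM (y axis, from 0) of 8 members in LPS + VD3, LPS and control libraries; points are libraries, bars the mean and SD of 2 libraries. Hif1a and P4ha1 are highest in LPS + VD3 libraries, Hk2 and Pfkp are high and Epas1, Slc16a1 and Pdk1 low in all 4 LPS-treated libraries, and Egln1 is low in the LPS libraries.

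The partners and oxygen sensors of the system differed among themselves. Arnt, the constant partner of both alpha subunits, had between 51.9 and 72.6 CPM in all 6 libraries and differed by 0.16 ± 0.17 in LPS + VD3 against LPS and 0.18 ± 0.17 in LPS against control, without passing the test. Vhl, the substrate receptor of the ligase that marks them for decay, had between 18.7 and 28.3 CPM and passed in neither comparison. Egln1 (PHD2), the main oxygen sensor among the prolyl hydroxylases, had 40 and 35 CPM in LPS + VD3 libraries, 25.9 in both LPS libraries, and 43.0 and 41.2 in control libraries. The LPS libraries were below all others. Egln1 fell by 0.70 ± 0.17 in LPS against control (edgeR adjusted p = 0.0114). It was 0.53 ± 0.18 higher in LPS + VD3 against LPS without passing the test (edgeR adjusted p = 0.129). With an offset for GC content, alone or with the replicate number as a block, it was called higher there. Over the 16 alternatives that value lay between 0.44 and 0.78, with 0.52 without LPS 1 and 0.54 without LPS 2. Its LPS against control call was lost without control 1 (-0.67) or control 2 (-0.73), with edgeR adjusted p of 0.122 and 0.0944, in a range of 0.00102 to 0.122 over the alternatives.

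Egln2 (PHD1) had 29.7 and 21.5 CPM in LPS + VD3 libraries, 52.1 and 28.5 in LPS libraries, and 23.1 and 21.3 in control libraries. Its value in LPS 1 was 1.83 times that in LPS 2, and the call in LPS against control (0.86 ± 0.28, edgeR adjusted p = 0.0408) was not kept without LPS 1, where the value was 0.34, against 1.23 without LPS 2. In LPS + VD3 against LPS it was at -0.66 and not called, and at -1.02 and called without LPS 2. It was also lost in 8 other settings, among them those without control 1 (0.91), control 2 (0.80), LPS + VD3 1 (0.86) or LPS + VD3 2 (0.84). Hif1an, the asparaginyl hydroxylase that blocks the transactivation domain of the alpha subunits, had 56.1 and 51.6 CPM in LPS + VD3, 63.4 and 51.6 in LPS, and 37.2 and 39.6 in control. All LPS-treated libraries lay above both control libraries. Its rise in LPS against control was 0.58 ± 0.17 (edgeR adjusted p = 0.0278), lost in 7 of 16 settings with values between 0.29 and 0.72 over all of them, the low end with library totals. It was 0.41 without LPS 1, 0.53 without control 1, 0.63 without control 2, 0.58 without LPS + VD3 1 and 0.56 without LPS + VD3 2. Egln3 (PHD3), itself a target of HIF in many cells, was near 0, with 3 counts over the LPS + VD3 libraries, 1 over the LPS libraries and 1 over the control libraries.

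Lactate transporters fell after LPS, while the main glucose transporter of the set did not pass the test. Slc16a1 (MCT1), which carries lactate and pyruvate with protons, had 19.7 and 16.7 CPM in LPS + VD3 libraries, 11.9 and 14.0 in LPS libraries, and 67.2 and 77.4 in control libraries. All 4 LPS-treated libraries lay far below both control libraries. It fell by 2.48 ± 0.20 on the log2 scale in LPS against control (edgeR adjusted p = 8.55e-06), the largest decrease among the members, and in LPS + VD3 against LPS it differed by 0.49 ± 0.21 (edgeR adjusted p = 0.213) with no overlap between the groups. The LPS against control value lay between -2.78 and -2.37 over the alternatives. Slc16a1 lies on chromosome 3 at 104638668 to 104658462 (mm10).

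Slc16a3 (MCT4), the lactate exporter of glycolytic cells, had 29.3 and 26.1 CPM in LPS + VD3, 29.3 and 16.0 in LPS, and 39.1 and 40.2 in control. The LPS libraries differed by 1.84 times, and both lay below the control libraries. Its fall of 0.81 ± 0.26 in LPS against control (edgeR adjusted p = 0.0354) was lost in 7 settings. The value was -1.33 without LPS 1, -0.44 without LPS 2, -0.83 without control 1, -0.79 without control 2, -0.81 without LPS + VD3 1 and -0.83 without LPS + VD3 2. In LPS + VD3 against LPS, Slc16a3 differed by 0.29 ± 0.26 (edgeR adjusted p = 0.534), with 0.78 without LPS 1 and -0.08 without LPS 2. Slc2a1 (GLUT1) had 74.3 and 81.4 CPM in LPS + VD3, 137 and 94.5 in LPS, and 94.6 and 87.8 in control. LPS 1 stood above all other libraries, LPS 2 within the range of control, and both LPS + VD3 libraries below the rest. The difference was -0.57 ± 0.19 in LPS + VD3 against LPS (edgeR adjusted p = 0.134, 95% interval -1.0 to -0.14) and 0.35 ± 0.19 in LPS against control (edgeR adjusted p = 0.202). Without LPS 2 both passed, at -0.81 (edgeR adjusted p = 0.000951) and 0.59 (edgeR adjusted p = 0.00363), and without LPS 1 they were -0.29 and 0.03. Slc2a3 (GLUT3) had 3 counts over each of the groups.

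Among hexokinases, which trap glucose as glucose-6-phosphate, Hk2 rose and Hk1 fell. Hk2, the inducible isoenzyme bound to mitochondria, had 224 and 192 CPM in LPS + VD3 libraries, 198 and 225 in LPS libraries, and 81.2 and 81.9 in control libraries. The 4 LPS-treated libraries overlapped each other and lay far above control. The rise in LPS against control was 1.38 ± 0.16 on the log2 scale (2.6-fold; edgeR adjusted p = 9.14e-05), between 1.08 and 1.45 over the alternatives. With vitamin D3 the difference from LPS was -0.02 ± 0.15, with a 95% interval of -0.36 to 0.32 (edgeR adjusted p = 0.94). Hk1, the housekeeping isoenzyme, had 19.5 and 16.7 CPM in LPS + VD3, 24.4 and 23.5 in LPS, and 36.5 and 37.8 in control. The groups did not overlap. Hk1 fell by 0.63 ± 0.18 in LPS against control (edgeR adjusted p = 0.0222) and by 1.04 ± 0.19 in LPS + VD3 against control (edgeR adjusted p = 0.00168), whereas LPS + VD3 against LPS gave -0.40 ± 0.19 (edgeR adjusted p = 0.247). The first of these calls was lost in DESeq2 (-0.62) and without control 1 (-0.66) or control 2 (-0.61). Hk3, a form found in myeloid cells, had 35.8 and 29.3 CPM in LPS + VD3, 59.3 and 43.7 in LPS, and 40.1 and 36.4 in control. It passed the test in neither comparison, at -0.66 in LPS + VD3 against LPS and 0.43 in LPS against control, and in both without LPS 2, at -0.86 and 0.63. Hk2 is on chromosome 6 at 82725025 to 82774454 (mm10).

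At the phosphofructokinase step, the first committed reaction of glycolysis, the platelet-type isoenzyme rose and the liver type fell. Pfkp had 441 and 403 CPM in LPS + VD3 libraries, 478 and 444 in LPS libraries, and 142 and 126 in control libraries. The LPS + VD3 libraries lay just below the LPS libraries, and both groups far above control. Pfkp rose by 1.78 ± 0.15 in LPS against control (3.44-fold; edgeR adjusted p = 1.22e-05), the largest increase among the members in this comparison and between 1.49 and 1.87 over the alternatives. Vitamin D3 with LPS gave a difference from LPS of -0.13 ± 0.14 (edgeR adjusted p = 0.628). Pfkp shares 748 bases of transcript with the overlapping gene Pitrm1 in the annotation (GENCODE, mm10, chromosome 13, 6579768 to 6648777), whose counts made up 19.14% of their joint counts and ranged from 317 to 471 a library. Whether reads were counted by strand is not given in the sources used here.

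Pfkl, the liver-type isoenzyme, had 25.1 and 19.1 CPM in LPS + VD3, 30.4 and 21.8 in LPS, and 46.8 and 40.4 in control. Control libraries were above all others. It fell by 0.74 ± 0.22 in LPS against control (edgeR adjusted p = 0.027), a call lost with no filter on low counts (-0.73) and without control 1 (-0.63) or control 2 (-0.84). The value was -1.01 without LPS 1 and -0.52 without LPS 2, and called in both. Pfkm, the muscle type, had between 3.60 and 5.26 CPM in all libraries. Per kb, Pfkp held 92.7% and 93.6% of the summed level of the 3 isoenzymes in LPS + VD3, 92.2% and 93.1% in LPS, and 70.7% and 70.1% in control. Gpi1, grouped with this step, had 277 and 287 CPM in LPS + VD3, 420 and 304 in LPS, and 352 and 332 in control. It differed by -0.36 ± 0.17 in LPS + VD3 against LPS (edgeR adjusted p = 0.247), with -0.12 without LPS 1 and -0.57 without LPS 2.

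The bifunctional PFKFB enzymes make and degrade fructose-2,6-bisphosphate, the main activator of phosphofructokinase, and differ in the balance of both activities. Pfkfb3, the form with the strongest kinase activity, had 42.5 and 45 CPM in LPS + VD3 libraries, 34.7 and 49.2 in LPS, and 25.4 and 24.7 in control. It rose by 0.74 ± 0.20 in LPS against control (edgeR adjusted p = 0.0181) and by 0.81 ± 0.20 in LPS + VD3 against control (edgeR adjusted p = 0.0117), and both calls were lost with library totals (0.45 and 0.48). The LPS against control value was 0.96 without LPS 1 and 0.47 without LPS 2, and called in both. Without control 1 the values were 0.76 and 0.82, and without control 2 they were 0.72 and 0.79, with both calls lost. The LPS + VD3 against control call was also lost without LPS + VD3 1 (0.85) or LPS + VD3 2 (0.74). Pfkfb4 went the other way, with 46.3 and 33.8 CPM in LPS + VD3, 73.5 and 49.6 in LPS, and 118 and 112 in control, so that the groups formed steps with no overlap. It fell by 0.90 ± 0.22 in LPS against control (edgeR adjusted p = 0.00972; -0.86 and not called without control 1, -1.23 without LPS 1 and -0.65 without LPS 2) and by 1.52 ± 0.22 in LPS + VD3 against control (edgeR adjusted p = 0.00049, kept in all 16 settings). Its value in LPS + VD3 against LPS was -0.62 ± 0.23 (edgeR adjusted p = 0.154), called in 2 of the 16 alternative settings, among them that without LPS 2 (-0.87).

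**Figure D3:**
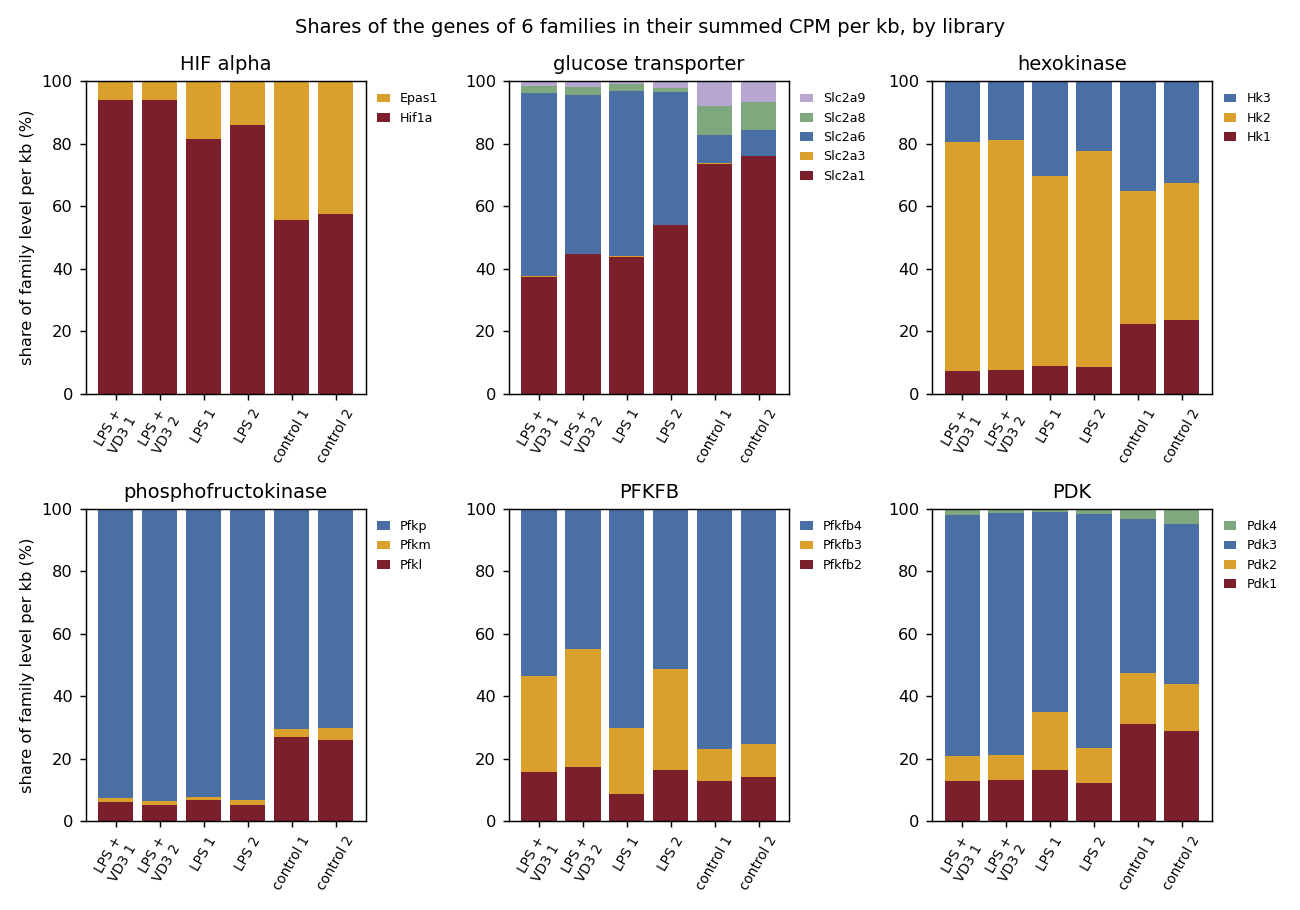
Share (y axis, percent) of each gene in the summed CPM per kb of exon of its family, by library in the order LPS + VD3, LPS and control; HIF alpha subunits, glucose transporters, hexokinases, phosphofructokinases, PFKFB enzymes and pyruvate dehydrogenase kinases (PDK). The share of Hif1a is 94.0% and 93.8% in LPS + VD3 libraries against 81.6% and 85.9% in LPS libraries, and those of Hk2, Pfkp and Slc2a6 are lower in control libraries than in all others.

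The rest of the chain held the most abundant members, and few of its genes passed the test with TMM scaling. Per kb of exon, Gapdh, which oxidises glyceraldehyde-3-phosphate, was the highest member in each group, at 1536 ± 44.1 CPM per kb in LPS + VD3, 1753 ± 374 in LPS and 1523 ± 2.7 in control (SD, n = 2). Aldoa, which splits the hexose, ranked second in each group, at 444 ± 9.84, 597 ± 136 and 480 ± 28.2 CPM per kb in the same order. For Gapdh the LPS + VD3 and control means lay between the LPS libraries, where LPS 1 was 1.36 times LPS 2. For Aldoa both LPS libraries lay above all others, LPS 2 only just, with LPS 1 at 1.38 times LPS 2, and the test was not passed. Ldha, Pkm, Pgam1 and Pgk1, the enzymes that make lactate, pyruvate and the intermediates before it, came next among the member rows of glycolytic enzymes in each group. This does not place enolase, because Eno1 was ranked without Gm5506, its near-identical copy, which held 89.91% of their joint counts. Below Aldoa, the group means of neighbouring genes often differed by less than their spread, as for Pkm at 339 ± 3.68 and Ldha at 390 ± 63.4 CPM per kb in LPS + VD3 cells.

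Of the 8 genes from Aldoa to Ldha, 0 rose and 1, Eno1, fell in LPS against control. This is 12.5% beside the 31.8% of all genes tested. The log2 fold changes lay between -0.91 and 0.33. At an unadjusted p under 0.05 edgeR gave 0 higher and 2 lower, DESeq2 called 0 higher and 1 lower, and limma on the deposited log2 values called 0 higher and 4 lower. Library totals also gave those 4 lower, Tpi1, Pgam1, Eno1 and Pkm, and in LPS + VD3 against control they and limma gave these and Pgk1. Without LPS 2, Aldoa (0.53), Gapdh (0.40) and Ldha (0.47) were called higher in LPS against control. With GC offsets Ldha was called higher and Tpi1, Pgam1 and Eno1 lower in that comparison. Adding the replicate number as a block to the GC offsets also called Pkm lower. In LPS + VD3 against LPS, where edgeR called 3.83% of all genes tested, 0 passed in either direction by edgeR, DESeq2 or limma. The values lay between -0.43 and 0.24, and at an unadjusted p under 0.05 edgeR gave 0 higher and 1, Aldoa, lower. In LPS + VD3 against control, where 35% of all genes tested were called, 3 fell: Tpi1, which interconverts the triose phosphates, by 0.58 ± 0.18 (edgeR adjusted p = 0.0285), Pgam1, the phosphoglycerate mutase, by 0.46 ± 0.16 (edgeR adjusted p = 0.0423), and Pkm, the pyruvate kinase, by 0.44 ± 0.14 (edgeR adjusted p = 0.0353). Pkm had 889 and 875 CPM in LPS + VD3, 1119 and 964 in LPS, and 1208 and 1193 in control, which placed the groups in 3 steps with no overlap. Each of these 3 calls was lost without control 1 or control 2 and without LPS + VD3 2, and those of Tpi1 and Pkm also without LPS + VD3 1. In these settings the values lay between -0.64 and -0.53 for Tpi1, were -0.45, -0.47 and -0.34 for Pgam1 and lay between -0.46 and -0.44 for Pkm. With an offset for GC content Pkm was at -0.22 and not called. Ldha had 825 and 655 CPM in LPS + VD3, 953 and 765 in LPS, and 699 and 673 in control, with 0.33 ± 0.17 in LPS against control (edgeR adjusted p = 0.175).

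The Eno1 call is uncertain, because the enolase gene has a near-identical copy. Gm5506, annotated as Eno1b, has a transcript with 99.5% identity over 1736 bases and held 89.91% of the joint counts. Eno1 itself had 54.9 and 85.8 CPM in LPS + VD3, 41.9 and 77.3 in LPS, and 112 in both control libraries, and fell by 0.91 ± 0.28 in LPS against control (edgeR adjusted p = 0.0321). LPS 1 had 0.542 times the level of LPS 2, and the value was -0.55 without LPS 1 and -1.42 without LPS 2. For Eno1 alone, LPS + VD3 against LPS gave 0.24 ± 0.28, with -0.14 without LPS 1 and 0.75 without LPS 2. With both rows summed, a setting chosen after seeing the data, there were 692 and 574 CPM in LPS + VD3, 1000 and 731 in LPS, and 981 and 909 in control, and the log2 fold change in LPS against control was -0.13 (edgeR adjusted p = 0.627, in a range of 0.000158 to 0.627 over the alternatives). The summed rows were at -0.45 and not called in LPS + VD3 against LPS (edgeR adjusted p = 0.184). In LPS + VD3 against control the summed rows were at -0.58 and called (edgeR adjusted p = 0.031), against -0.67 and not called for Eno1 alone (edgeR adjusted p = 0.0887). For Gapdh, 77 other annotated genes hold a similar transcript, 3 of them with a row, and the highest of the 3 had 0.23% of the joint counts.

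**Figure D4:**
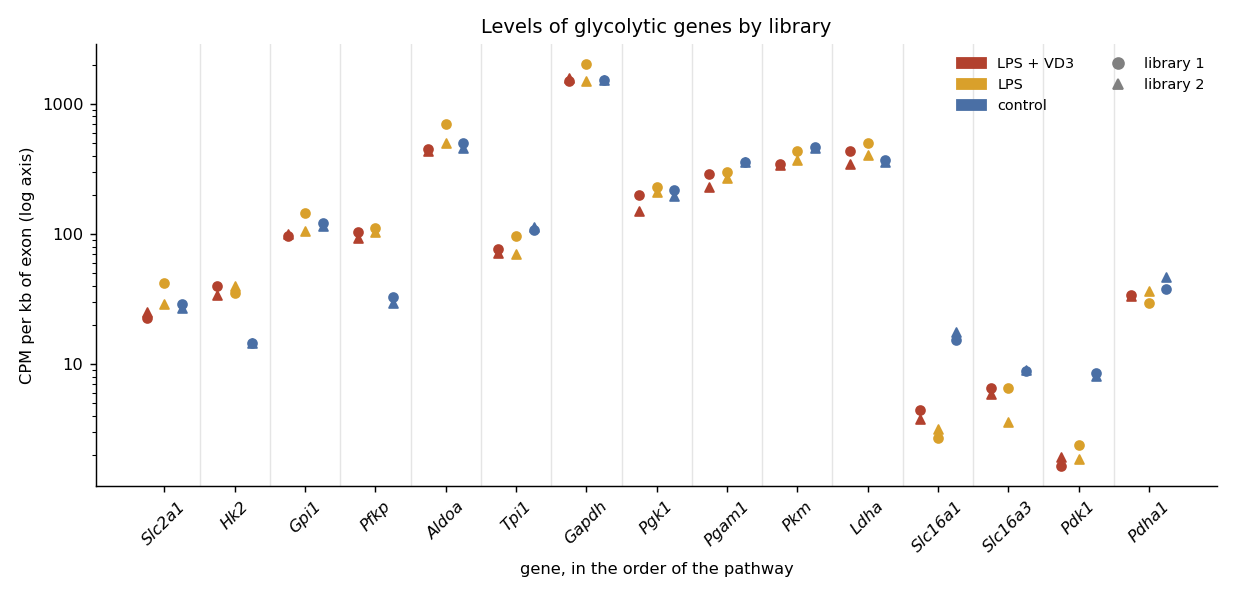
CPM per kb of exon (log axis) of 15 members in the order of the pathway, from glucose uptake to lactate export and pyruvate dehydrogenase; colours are LPS + VD3, LPS and control, circles library 1 and triangles library 2. Hk2 and Pfkp lie higher and Slc16a1 and Pdk1 lower in all LPS-treated libraries than in control.

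Pyruvate dehydrogenase passes pyruvate to the mitochondria and is switched off by the kinases Pdk1 to Pdk4. Pdk1, a textbook target of HIF-1, had 8.58 and 9.95 CPM in LPS + VD3 libraries, 12.3 and 9.71 in LPS libraries, and 44.4 and 41.7 in control libraries. The LPS-treated libraries overlapped and lay far below control. It fell by 1.96 ± 0.21 in LPS against control (edgeR adjusted p = 5.87e-05) and by 2.21 ± 0.21 in LPS + VD3 against control (edgeR adjusted p = 2.91e-05), both kept in all 16 settings, and LPS + VD3 against LPS gave -0.25 ± 0.24 (edgeR adjusted p = 0.56). Pdk1 was thus low in the LPS + VD3 libraries, where Hif1a was highest, and in the LPS libraries as well. A link between these transcripts was not tested. Pdk3, a kinase of high activity, had between 19.5 and 30.1 CPM and did not pass in any comparison, though it was called lower in LPS against control with library totals, in limma on the deposited log2 values and without LPS 2 (-0.59). It held 77.4% and 77.5% of the summed level of Pdk1 to Pdk4 per kb in LPS + VD3, 63.9% and 75.0% in LPS, and 49.4% and 51.2% in control. Pdha1, the catalytic E1 alpha subunit, had between 83.5 and 133 CPM and did not pass either, but was called lower in the same 3 settings (-0.52 without LPS 2). Pdk1 lies on chromosome 2 at 71873224 to 71903858 (mm10).

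Of the 3 targets of hypoxia signalling outside glycolysis, P4ha1 was raised by vitamin D3. P4ha1, the catalytic subunit of collagen prolyl 4-hydroxylase, had 86.3 and 90.4 CPM in LPS + VD3 libraries, 49.9 and 56.0 in LPS libraries, and 55.0 and 62.3 in control libraries. The LPS + VD3 libraries lay above all others, and the LPS and control libraries overlapped. It rose by 0.74 ± 0.16 in LPS + VD3 against LPS (1.67-fold; edgeR adjusted p = 0.0357). The value stayed between 0.59 and 0.83 over the alternatives, and the call was lost in 6 of them: with no filter (0.73), with the compared libraries only (0.73), without control 1 or control 2 (0.74 each) and without LPS + VD3 1 (0.77) or LPS + VD3 2 (0.70), at adjusted p between 0.094 and 0.3 in edgeR, within 0.00187 to 0.3 over all alternatives. Bnip3, a mitophagy receptor, had 7.33 and 8.16 CPM in LPS + VD3, 6.77 and 6.88 in LPS, and 8.57 and 13.6 in control, and did not pass. Ndrg1, a stress-responsive cytoplasmic protein, had 7 counts over the LPS + VD3 libraries, 13 over the LPS libraries and 13 over the control libraries. The gene of P4ha1 spans 59323296 to 59373304 on chromosome 10 (mm10).

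In LPS + VD3 against control, which shares libraries with both comparisons above, 5 members were higher (Hif1a, Pfkp, Hk2, Pfkfb3 and P4ha1) and 9 lower (Slc16a1, Pdk1, Pfkfb4, Hk1, Epas1, Pfkl, Tpi1, Pkm and Pgam1), or 43.8% of the members beside the 35% of all genes, 17.7% higher and 17.3% lower. Library totals in place of TMM factors gave 3 higher (Hif1a, Hk2 and Pfkp) and 18 lower, with the median of all genes moved by -0.327. Summed over all 35 members, the level was 8499 ± 84.6 CPM in LPS + VD3, 8884 ± 1155 in LPS and 8137 ± 78.1 in control (SD, n = 2). As a share of all counts, with no TMM scaling, the members took 0.786% and 0.776% in LPS + VD3, 0.918% and 0.753% in LPS, and 0.952% and 0.924% in control. The control libraries were highest by share and lowest by mean TMM-scaled sum.

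Other genes of sugar metabolism were read from lists that do not overlap the members. Of 25 tested isoenzymes, transporters and genes of pyruvate entry, 1 rose and 9 fell in LPS against control, 40% beside the 31.8% of all genes, 15.7% higher and 16.2% lower, with a median log2 fold change of -0.38 beside 0.006 over all genes. The gene that rose was Slc2a6 (GLUT6), a sugar transporter of lysosomal membranes in macrophages. It had 76.6 and 60.9 CPM in LPS + VD3, 109 and 49.0 in LPS, and 7.71 and 6.41 in control, so that every LPS-treated library was above both control libraries although the LPS libraries differed widely. Its log2 fold change was 3.48 ± 0.37 (edgeR adjusted p = 6e-05). Per kb, Slc2a6 made up 58.6% and 50.9% of the summed level of the 5 glucose transporter family genes compared in LPS + VD3, 52.8% and 42.6% in LPS, and 9.12% and 8.45% in control, and Slc2a1 37.3% and 44.6%, 43.8% and 53.9%, and 73.4% and 76.0% in the same order. Among those that fell were the monocarboxylate transporter Slc16a7 (-1.95 ± 0.37), the urate transporter Slc2a9 (-1.57 ± 0.31) and the pyruvate dehydrogenase kinase Pdk4 (-2.44 ± 0.52). With vitamin D3, 0 of the 25 passed against LPS in edgeR, DESeq2 or limma, beside 3.83% of all genes in edgeR. At an unadjusted p under 0.05 edgeR gave 2 higher and 2 lower.

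Of 15 pentose phosphate and sugar phosphate genes, 0 rose and 6 fell in LPS against control, 40% beside the 31.8% of all genes, among them Rpia, the ribose-5-phosphate isomerase (-1.02 ± 0.18), and Prps2, which makes the activated ribose of nucleotide synthesis (-1.14 ± 0.20). At an unadjusted p under 0.05 edgeR gave 0 higher, as did DESeq2 and limma at the threshold. Vitamin D3 raised 0 and lowered 1 of the 15, 6.67% beside the 3.83% of all genes. This was H6pd, the hexose-6-phosphate dehydrogenase of the endoplasmic reticulum. It had 39.6 and 32.2 CPM in LPS + VD3, 75.7 and 58.5 in LPS, and 56.4 and 55.6 in control. LPS + VD3 libraries lay below the others. The change of -0.90 ± 0.19 in LPS + VD3 against LPS (edgeR adjusted p = 0.031) was not called in 6 of 16 settings. It was -1.05 without LPS + VD3 1, -0.77 without LPS + VD3 2 and -0.90 without control 1 or control 2, with adjusted p up to 0.338 over the alternatives.

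Of 13 glycogen genes, 0 rose and 6 fell in LPS against control, 46.2% beside the 31.8% of all genes, such as Phka2, a subunit of phosphorylase kinase (-1.03 ± 0.17), and 0 were higher at an unadjusted p under 0.05 in edgeR or called higher by DESeq2 or limma. Pygl, the liver-type glycogen phosphorylase, had 352 and 321 CPM in LPS + VD3 libraries, 181 and 188 in LPS libraries, and 332 and 331 in control libraries. The LPS libraries were low and the LPS + VD3 libraries lay at the level of control. Of the 13, Pygl alone was called in LPS + VD3 against LPS, 7.69% beside the 3.83% of all genes. It rose by 0.86 ± 0.14 in LPS + VD3 against LPS (edgeR adjusted p = 0.00878) and fell by 0.84 ± 0.14 in LPS against control (edgeR adjusted p = 0.00115). The first call was lost without LPS + VD3 1 (0.80) or LPS + VD3 2 (0.92), at edgeR adjusted p of 0.0998 and 0.0846, in a range of 6.74e-05 to 0.0998.

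Of 29 other genes of the HIF pathway and the hypoxia response, 6 rose and 6 fell in LPS against control, 41.4% beside the 31.8% of all genes. Lox, which cross-links collagen, had 402 and 519 counts in LPS + VD3 libraries, 306 and 433 in LPS libraries, and 1 and 2 in control libraries, a counting ratio of 303 in LPS against control (95% interval 103 to 1473, counting error only). Edn1, the precursor of the vasoconstrictor endothelin, had 34 and 37 counts in LPS + VD3, 71 and 63 in LPS, and 0 and 2 in control, a ratio of 82.5 in LPS against control (95% interval 22.4 to 688). Both were near 0 in the control libraries and not in the others. Angptl4, an inhibitor of lipoprotein lipase, fell by 2.07 ± 0.27, with 6.49 and 8.36 CPM in LPS + VD3, 8.41 and 5.26 in LPS, and 26.2 and 31.3 in control. Vitamin D3 with LPS raised 1 of the 29 over LPS, 3.45% beside the 3.83% of all genes. This was Loxl2, a relative of Lox. It had 69.9 and 71.9 CPM in LPS + VD3, 12.9 and 15.4 in LPS, and 11.0 and 6.25 in control. The LPS + VD3 libraries stood far above every other library, and the rise of 2.32 ± 0.24 (edgeR adjusted p = 0.000769) was called in all 16 alternative settings, with values between 2.19 and 2.46.

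Of 21 regulators of sugar metabolism and growth, 1 rose and 5 fell in LPS against control, 28.6% beside the 31.8% of all genes, among them Deptor, an inhibitor of mTOR (-2.24 ± 0.30). Vitamin D3 raised 2 and lowered 1, 14.3% beside 3.83% of all genes. Myc, a transcription factor that raises glycolytic and ribosomal genes, had 47.7 and 62.7 CPM in LPS + VD3, 23.8 and 19.2 in LPS, and 48.8 and 52.6 in control. As with Pygl, the LPS libraries were low and the LPS + VD3 libraries near control. Myc rose by 1.36 ± 0.21 in LPS + VD3 against LPS (edgeR adjusted p = 0.006; 1.14 and not called without LPS + VD3 2) and fell by 1.24 ± 0.20 in LPS against control (edgeR adjusted p = 0.00107). Txnip and Arrdc4 are alpha-arrestins that restrain glucose uptake and are targets of the same glucose-sensing factors. Txnip had 122 and 123 CPM in LPS + VD3, 224 and 200 in LPS, and 298 and 287 in control, whereas Arrdc4 had 250 and 222, 144 and 160, and 157 and 151 in the same order. The 2 genes moved in opposite directions with vitamin D3. Txnip fell by 0.79 ± 0.14 and Arrdc4 rose by 0.63 ± 0.15 in LPS + VD3 against LPS (edgeR adjusted p = 0.0148 and 0.0461). The Txnip call was lost in 5 of 16 settings, with values of -0.79 without control 1 or control 2, -0.78 without LPS + VD3 1 and -0.81 without LPS + VD3 2, and the Arrdc4 call in 9, with 0.63, 0.55 and 0.71 in the same settings.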

How the data were processed

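RNA was measured in 6 libraries of alveolar macrophages. The kits named in the labels' protocols are Qiagen RNeasy Micro for RNA and KAPA mRNA HyperPrep for libraries. The deposited table holds whole-number counts per gene made by the authors. Per the submitters' processing notes, TopHat2, edgeR and mm10 were used, with no order given. How reads were counted (program, annotation, strand, multiple matches) is not given in the sources used here, so counts of overlapping, antisense and near-identical genes are uncertain. The deposited second table, checked here, equals log2(CPM + 1) of the authors' counts within 0.00423 and served in an alternative only.

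The test was edgeR's quasi-likelihood F test (version 4.0.16, R 4.3.3) on the counts, after filterByExpr (minimum count 10, minimum total 15), with TMM scaling, 3 group means over all 6 libraries and Benjamini-Hochberg adjustment over the 10724 genes kept. Each SE was taken as the absolute log2 fold change divided by the root of F. CPM were scaled by TMM and given as mean ± SD, and levels per kb divide by the merged exon length of GENCODE (mm10). Total counts per library were 5198957 and 5465223 in LPS + VD3, 5148787 and 5298428 in LPS, and 5022314 and 5454955 in control. Intervals of log2 fold changes were taken from the SE and a t quantile, so they include the spread between libraries. Intervals of counting ratios and the floor of 3 counts cover counting error only. Replicates differed by more than sampling noise, with a chi-square over its degrees of freedom of 9.64, 25.3 and 2.45 in the same order. Alternatives were no filter, DESeq2 1.42.0 size factors, library totals, DESeq2, the compared libraries only, limma 3.58.1 on the log2 table, the replicate number as a block, GC offsets, both together, each library left out and, chosen after seeing the data, Eno1 summed with Gm5506. Copies were sought at 95% identity over 300 bases. The members, the lists and the tests were chosen with earlier results of these data known. Named genes are all members, the treatment checks, genes of the families compared, and up to 4 genes of each list and comparison with the smallest p. Vcan, Ccr2, Cdh1, Chi3l3, Marco, Car4, Fabp4, Cxcr2, S100a8, Emr1, Mertk, Fcgr1 and Csf1r were named after their values were seen.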

Additional observations from a re-analysis of the deposited data

How the results depend on the processing

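The counts that follow stand for 3 comparisons, first LPS against control, then LPS + VD3 against LPS, then LPS + VD3 against control. The main counts were 3411, 411 and 3749 genes, with 6, 2 and 5 members higher and 9, 0 and 9 lower. No member or named list gene that was called changed sign under any of the 16 alternatives. Scaling changed the members called against control: library totals gave 2, 2 and 3 higher and 15, 0 and 18 lower, and the deposited log2 table in limma, which also changes the test and the genes tested, 2, 2 and 3 higher and 15, 0 and 17 lower. In both, the median of all genes moved down against control. With no filter, 169 genes and 1 member higher were called in LPS + VD3 against LPS. With the compared libraries only, they were 258 and 1, and LPS + VD3 against control had 14 members lower. GC offsets gave 806 genes in LPS + VD3 against LPS. The replicate number as a block gave 1152 genes there, with 2 members lower (Hk3 and Pfkfb4), and in that comparison block and GC offsets together gave 1395 genes, 4 members higher and 1 lower, with 8 members higher in LPS + VD3 against control. Each LPS + VD3 source name includes an LPS number, but the labels do not state that equal numbers share cells, and the deviations of equal numbers correlated weakly (0.196 for LPS + VD3 with LPS, 0.0894 for LPS + VD3 with control, 0.172 for LPS with control), so the block was not used. Each library left out in turn gave 1940 to 4829, 55 to 3670 and 2126 to 5410 genes, 2 to 11, 0 to 4 and 3 to 7 members higher, and 3 to 12, 0 to 9 and 5 to 14 members lower. The lowest counts in LPS + VD3 against LPS came without LPS + VD3 2 and the highest without LPS 2. A group left with 1 library is assumed to vary like the other groups. The cause of these changes was not tested. Depth left Egln3, Slc2a3 and Ndrg1 with too few counts to test.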

Other observations

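In LPS + VD3 against control, 10 of the 29 other genes of the HIF pathway and the hypoxia response were higher and 6 lower, 55.2% beside the 35% of all genes tested. Adm, the precursor of the vasodilator adrenomedullin, had 9.42 and 9.75 CPM in LPS + VD3 libraries, 13.3 and 5.66 in LPS libraries, and 0.343 and 0.321 in control libraries, the last from 2 counts each. All LPS-treated libraries lay above control, and the LPS + VD3 libraries lay between the LPS libraries. Of the glycogen genes, 0 were higher and 5 lower in that comparison (edgeR, with 0 higher at an unadjusted p under 0.05, and 0 called higher by DESeq2 or limma), and of the pentose phosphate and sugar phosphate genes 1 was higher and 6 lower. The median log2 fold change was -0.38 over the glycogen genes and -0.39 over the pentose phosphate and sugar phosphate genes, beside 0.008 over all genes.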
